A study of Gallus gallus with 12 samples.

Results

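Chicken primordial germ cells (PGC), the precursors of sperm and eggs, were compared with cultured chicken embryonic fibroblasts (CEF) on 6 of the 12 arrays of the study, 3 arrays for each cell type. The arrays were chosen by the cell type named in their titles, and all 37693 probe sets designed for chicken transcripts were compared. The embryos were White Leghorn, a laying breed, and no transgene, mutation or treatment was named for any group. PGC were collected from day 6.5 gonads with a magnetic cell sorter, from 100 embryos of mixed sex and 270000 cells for each sample, and were not cultured. CEF came from 5 embryos of the same age for each sample and were grown in serum-containing medium until passage 2, with 6000000 cells for each sample. The remaining arrays, 3 each, held gonadal stromal cells (GSC) sorted from the same kind of day 6.5 gonads and blastoderm cells at day 0. The labels placed the source of the fibroblasts in muscle while the design text named the body of the embryo, and the antibody of the sort was not given in the sources used here. Cell type, tissue of origin, sorting, pool size and culture all differed between PGC and CEF, so their parts in any difference cannot be told apart.

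In birds the germ cells are set aside early, travel in the blood and settle in the gonad, where they divide until meiosis begins. They are known for RNA-binding proteins that control germ cell transcripts and for the piRNA pathway, in which PIWI proteins and their partners use small RNAs to silence transposons. Fibroblasts are mesenchymal cells that make the collagen-rich matrix of connective tissue, and in culture they spread on the dish with actin and myosin bundles anchored at focal adhesions.

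Levels are the log2 values of the deposited table, 1 probe set for each of 13008 genes. A level of 3.608 served as background, since 99% of the probe sets against viruses and reporter genes lay below it. A gene was called higher or lower in PGC at an adjusted p below 0.05 in limma's moderated test, and a gene whose 3 arrays in the dimmer group were all at background is given as "at least" a fold change. A difference without these words can still rest on a dimmer group close to background, as for DNMT3B, CLDN1, SOX3, ELAVL4 and THBS1. The size of such a difference is uncertain. Of the 13008 genes, 6458 were called (49.6%), 3599 of them higher in PGC (27.7%) and 2859 lower (22%). Calls with a difference of 2-fold or more numbered 2062 higher (15.9%) and 1470 lower (11.3%), and those of 16-fold or more 149 (1.15%) and 95 (0.73%). Of the genes called higher, 903 (6.94% of all) had CEF at background, and of those called lower, 729 (5.6%) had PGC at background. Among probe sets, 14544 were called (38.6%), 7376 of them higher (19.6%) and 7168 lower (19%). The balance of the probe set calls depended on the scaling, with 50.7% of them higher here, 49.1% after quantile normalization (7202 and 7476) and 43.9% with each array centred on its median (6842 and 8727). By 2-fold or more, 4221 probe sets were higher (11.2%) and 3024 lower (8.02%), by 16-fold or more 250 (0.663%) and 172 (0.456%). With the dimmer group at background, 2513 were higher (6.67%) and 3158 lower (8.38%). The arrays of the groups did not overlap for 3921 genes higher in PGC (30.1%) and 3482 lower (26.8%), or 8145 (21.6%) and 9538 (25.3%) probe sets. The median log2 difference over all genes was -0.005. The labels call the 3 samples of each group independent. All member counts of the gene lists below are to be read beside the shares of all genes, 27.7% called higher and 22% lower. In these lists, a count of 4 or fewer members in the rarer direction often changed by over 1.5 times when 1 array was left out. Such counts carry little weight.

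Arrays of the same cell type correlated at 0.972 to 0.989 among PGC and 0.980 to 0.987 among CEF, and arrays of different type at 0.868 to 0.887. The drop from 3′ to 5′ probe sets of actin and GAPDH, a measure of RNA breakdown, was 0.23 ± 0.15 in PGC and 0.34 ± 0.32 in CEF on the log2 scale (SD, n = 3 each, exact permutation p = 0.7, smallest possible p 0.1). Poly-A spike-ins were at 7.3 ± 0.3 in PGC and 6.6 ± 0.5 in CEF, and hybridization spike-ins at 8.79 and 8.87 (exact permutation p = 0.2 and 0.7). The array median was 3.594 in PGC and 3.540 in CEF, and the share of probe sets above background 49.8% and 48.8%. Both of these separated the groups fully, at the smallest possible exact permutation p of 0.1. PGC replicate 3 stood apart from the other PGC arrays. It correlated with the mean of the GSC arrays at 0.966, against 0.935 and 0.944 for PGC replicates 1 and 2. It also had the lowest level of many germ cell genes and the highest level of gonadal stromal genes, so some results that rest on it are given with and without it. Without PGC replicate 3 the calls numbered 3727 genes higher and 3020 lower.

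**Figure D1:**
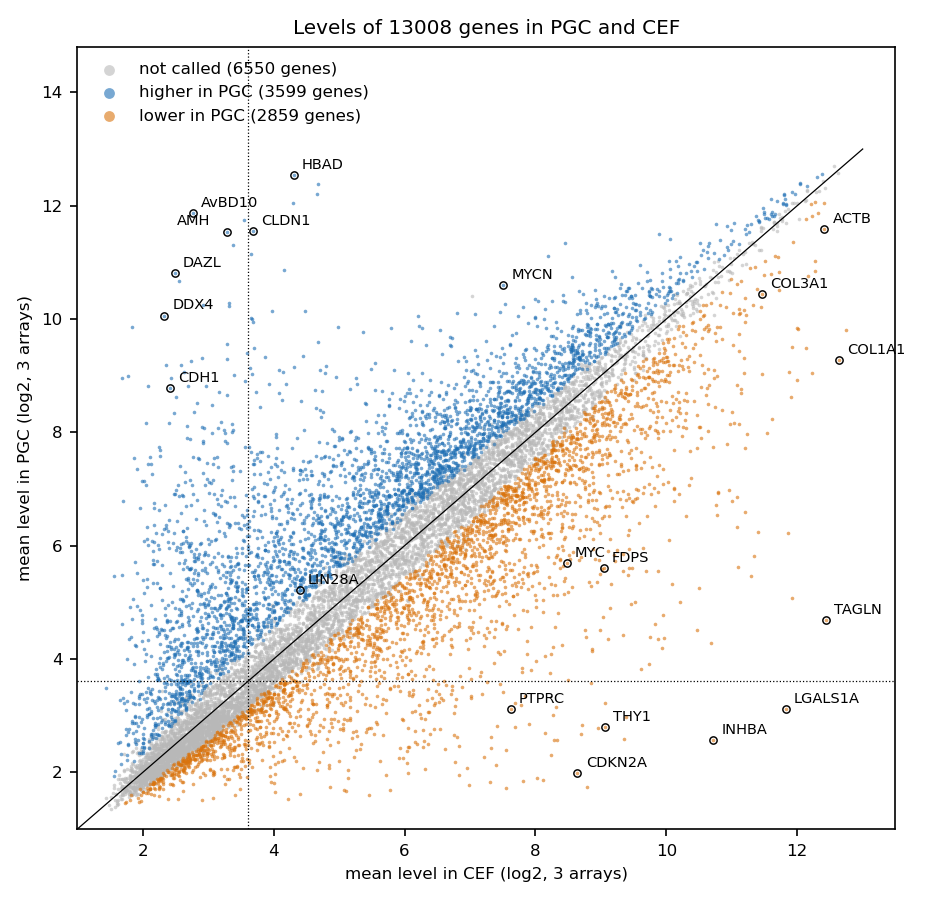
Mean log2 level of each gene in the 3 PGC arrays (vertical axis) against the 3 CEF arrays (horizontal axis), with 3599 genes called higher in PGC in blue, 2859 called lower in orange and the rest in grey; dotted lines mark the background of 3.608 and the solid line equal levels. DAZL, DDX4, CDH1 and AMH lie at the left, below background in CEF, while LGALS1A, INHBA, THY1 and CDKN2A lie at the bottom, below background in PGC.

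The germ cell markers followed the label of the sorted cells. All 6 of them, DDX4, DAZL, DND1, KIT, PIWIL1 and TDRD9, were called higher in PGC. DAZL, an RNA-binding protein that controls translation in germ cells, read 11.06, 11.22 and 10.14 across PGC and 2.07, 2.97 and 2.43 across CEF. Its mean was 10.81 ± 0.58 in PGC against 2.49 ± 0.45 in CEF (SD, n = 3), at least 147-fold higher (adjusted p = 1.85e-12). DDX4, the vasa RNA helicase of the germ granule, read 10.40, 10.48 and 9.30 in PGC and 2.03, 2.41 and 2.54 in CEF, at least 87.4-fold higher (adjusted p = 5.97e-12). For both genes every PGC array was far above every CEF array, with PGC replicate 3 the lowest of its group. DND1, which protects germ cell transcripts from microRNAs in zebrafish, read 8.77, 8.84 and 8.64 in PGC and 4.56, 4.94 and 4.42 in CEF, a log2 difference of 4.11 ± 0.19 (SE, adjusted p = 7.56e-11). Here the 3 PGC arrays lay close together and PGC replicate 3 was not set apart. Because these are bulk samples, fewer cells of a type and less RNA per cell cannot be told apart for this or any gene below.

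Of 18 measured genes of germ cell RNA regulation, 14 were higher in PGC and 1 lower (77.8%, beside 27.7% of all genes). ELAVL2, a Hu-type RNA-binding protein better known from neurons, was at least 47.9-fold higher, at 9.19 ± 0.57 in PGC and 2.58 ± 0.15 in CEF (adjusted p = 1.48e-11). CPEB1, which regulates the poly(A) tails of stored transcripts, was 25.1-fold higher (adjusted p = 1.89e-09). The 1 member called lower, IGF2BP1, was below background in both groups, at 2.42 ± 0.11 and 2.90 ± 0.06.

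The piRNA pathway showed the same direction, with 15 of 19 measured members higher, 2 lower and a median log2 difference of 2.96. No member was at background on all 3 PGC arrays, while 11 were on all 3 CEF arrays. For 1 member the means of both groups were at or below background. The median log2 difference was 2.34 with values below background set to it and 0.96 with an offset of 64. PIWIL1, an Argonaute protein that binds piRNAs, read 9.84, 9.84 and 9.13 in PGC and 4.22, 5.31 and 4.51 in CEF, 30.4-fold higher (adjusted p = 4.03e-10). The groups were well separated, and the CEF arrays were all above background. PNLDC1, the nuclease that trims piRNA 3′ ends in mice, was at least 22.4-fold higher (adjusted p = 9.97e-11), and ASZ1, a mitochondrial partner of the pathway, at least 11-fold higher (adjusted p = 2.52e-09). The Tudor proteins, scaffolds of the germ granule, were higher for 7 of 9 members. TDRD9, a helicase of this family, read 7.71, 7.82 and 6.12 in PGC and 4.33, 4.17 and 3.67 in CEF, 8.92-fold higher (adjusted p = 1.88e-06). TDRD1 read 7.59, 7.63 and 5.38 in PGC against 3.39 ± 0.06 in CEF, at least 9.57-fold higher (adjusted p = 4.34e-06). PGC replicate 3 was lower than the other 2 arrays for both Tudor genes, and without it TDRD1 was at least 16-fold higher. The 2 members called lower were MYBL1, a transcription factor that switches on piRNA precursors in mouse testis, and TDRD3, which also acts in somatic cells. MYBL1 was at 5.31 ± 0.87 in PGC and 6.77 ± 0.39 in CEF, a log2 difference of -1.47 (adjusted p = 0.00313).

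Of 30 measured meiosis genes, 14 were higher in PGC (46.7%, beside 27.7% of all genes) and 0 lower by limma. In both groups 16 were below background. With genes near background filtered out, 7 members were called higher, so the count depends on how low values are treated. Without PGC replicate 3 the count was 17. DMRTB1, a DM-domain regulator of the entry into meiosis in mice, read 9.27, 9.14 and 8.49 in PGC and 2.39, 2.39 and 2.49 in CEF, at least 41-fold higher (adjusted p = 3.07e-12). HORMAD1, a protein of the meiotic chromosome axis, was at least 7.06-fold higher (adjusted p = 1.00e-08). HSF2BP, which takes part in meiotic recombination, was 7.32-fold higher (adjusted p = 6.96e-07). TERB1, which ties meiotic telomeres to the nuclear envelope, read 6.85, 6.40 and 3.91 in PGC and was at most 2.04 in CEF. That gene was at least 4.32-fold higher (adjusted p = 2.47e-05), or at least 8.1-fold without PGC replicate 3, its lowest array. Named after their values were seen, SYCP3 of the synaptonemal complex (4.48 in PGC, 2.01 in CEF, at least 1.84-fold) and STRA8, the retinoic acid responsive gatekeeper of meiosis (4.03 and 2.47, at least 1.34-fold), were also called higher. Both were below background in PGC replicate 3.

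**Figure D2:**
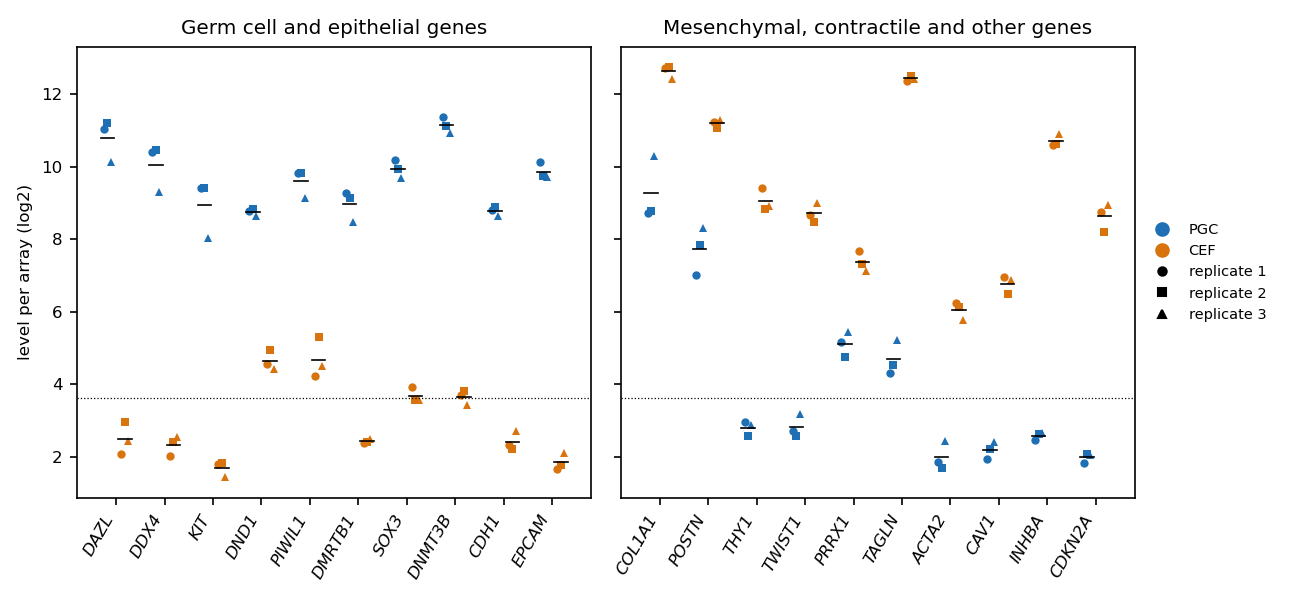
Log2 level on each PGC array (blue) and each CEF array (orange) for 10 germ cell and epithelial genes (left) and 10 mesenchymal, contractile and other genes (right); marker shapes give the replicate, bars the group mean and the dotted line the background of 3.608. No array of one group overlaps the other for any of the 20 genes, which were picked among genes called on these same arrays. Of all genes, 30.1% were without overlap and higher in PGC and 26.8% without overlap and lower. PGC replicate 3 is the lowest PGC array for DAZL, DDX4 and KIT and the highest for COL1A1, POSTN and TAGLN.

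In the list of pluripotency and germ cell transcription, 12 of 22 measured transcription factors were higher in PGC (54.5%) and 4 lower (18.2%). Among all genes 27.7% were higher and 22% lower. Of 3 signalling partners 1 was higher and 0 lower by limma. SOX3, a SoxB1 transcription factor, was 76.8-fold higher in PGC, at 9.94 ± 0.25 against 3.68 ± 0.20 (adjusted p = 3.14e-11). DMRT1, the Z-linked regulator of gonadal sex, was at least 133-fold higher, at 10.58, 10.66 and 10.76 in PGC against 2.55 ± 0.22 in CEF (adjusted p = 1.66e-14). The level of DMRT1 in GSC, whose gonadal cells also use this gene, was 10.71 ± 0.05. SALL1, a zinc finger protein, was 21.7-fold higher (adjusted p = 5.38e-08), and CFC1, a Nodal co-receptor, at least 22.6-fold higher (adjusted p = 1.85e-11). Without PGC replicate 3 the bound of CFC1 was 18.7-fold. On the log2 scale the signalling partners, CFC1 among them, had a summed level of 7.75 to 8.72 in PGC. In CEF that sum was 4.2 to 4.36, and in GSC 9.07 to 9.37, above every PGC array. LIN28A, which blocks let-7 maturation, differed less, at 5.22 ± 0.20 against 4.40 ± 0.11, a 1.76-fold difference (adjusted p = 0.00326). SOX2 was below background on the PGC arrays, at 2.97 ± 0.21, and at background in CEF, at 3.58 ± 0.04. NANOG, POU5F3 and PRDM14, all central to germ cell identity in birds or mammals, had no probe set with a single assigned symbol and were not analysed here.

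The MYC genes moved apart. MYCN read 10.84, 10.79 and 10.17 in PGC and 7.38, 7.17 and 7.96 in CEF, 8.55-fold higher (adjusted p = 6.11e-09). MYC read 5.33, 5.29 and 6.44 in PGC and 8.43, 8.08 and 8.92 in CEF, a log2 difference of -2.79 ± 0.29 (SE, adjusted p = 1.06e-06). The groups did not overlap for either gene, and the directions were opposite. KLF2, a Krüppel-like factor, and ETV4, of the ETS family, were also lower in PGC, with log2 differences of -1.98 and -1.26 (adjusted p = 2.03e-05 and 8.28e-04).

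Among DNA methylation and chromatin genes, 8 of 36 measured members were higher and 6 lower, shares of 22.2% and 16.7% beside 27.7% and 22% of all genes. A few members stood out within it. DNMT3B, a methyltransferase that lays down new DNA methylation, read 11.38, 11.13 and 10.92 in PGC and 3.70, 3.82 and 3.43 in CEF, 181-fold higher (adjusted p = 2.96e-13). HELLS, a remodeller needed for DNA methylation, was 7.45-fold higher (adjusted p = 3.93e-09). JARID2, a partner of Polycomb complex 2, was 7.07-fold higher (adjusted p = 1.29e-08), and SUV39H2, which methylates histone H3 at heterochromatin, 4.28-fold higher (adjusted p = 9.41e-05). In the other direction HDAC9, a class IIa histone deacetylase, was at 4.78 ± 0.75 in PGC and 7.68 ± 0.32 in CEF, a log2 difference of -2.90 (adjusted p = 6.79e-06).

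Receptors and adhesion molecules listed for germ cell homing and survival were higher for 9 of 16 measured members (56.2%) and lower for 2 (12.5%). On the log2 scale their summed level was 11.39 to 11.56 in PGC and 10.88 to 10.95 in CEF. In GSC it was 11.68 to 11.76, above every PGC array, so the list is not particular to germ cells. Of 7 measured ligands 0 were higher and 3 lower by limma (42.9%). Among all genes 27.7% were higher and 22% lower. KIT, the receptor for stem cell factor, read 9.41, 9.41 and 8.04 in PGC and 1.81, 1.81 and 1.44 in CEF, at least 40.7-fold higher (adjusted p = 2.41e-11). CXCR4, the chemokine receptor that draws germ cells to the gonad, read 6.06, 5.88 and 5.20 in PGC and 3.18, 3.67 and 5.38 in CEF, 3.11-fold higher (adjusted p = 0.011). Its groups overlapped through CEF replicate 3, and the call was lost without CEF replicate 1, without CEF replicate 2 and with an offset of 64 added to the unlogged values. Without CEF replicate 3 its log2 difference was 2.29, against 1.64. FGFR3 was 11.7-fold higher (adjusted p = 1.94e-08), the neurotrophin receptor NTRK3 5.85-fold (adjusted p = 6.83e-06) and the insulin receptor INSR 3.24-fold (adjusted p = 2.25e-05). FGF2, a fibroblast growth factor that avian germ cells need in culture, was below background on all 3 PGC arrays and at 8.15 ± 0.16 in CEF, at least 23.3-fold lower in PGC (adjusted p = 2.67e-12). ITGB3, an integrin subunit, was at 5.76 ± 0.53 in PGC and 8.98 ± 0.34 in CEF (adjusted p = 1.79e-08).

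Of 18 measured adhesion and tight junction genes 9 were higher in PGC (50%) and 1 lower (5.6%). Of 8 desmosome and keratin genes 2 were higher (25%) and 4 lower (50%), beside 27.7% and 22% of all genes. CDH1, the E-cadherin of epithelial and germ cells, read 8.80, 8.90 and 8.64 in PGC and 2.33, 2.21 and 2.70 in CEF, at least 36.1-fold higher (adjusted p = 6.82e-13). EPCAM, an epithelial adhesion molecule, read 10.12, 9.76 and 9.71 in PGC and 1.66, 1.76 and 2.11 in CEF, at least 76.5-fold higher (adjusted p = 2.83e-12). Both were below background on every CEF array, and the PGC arrays lay close together. CLDN1, a tight junction claudin, was 234-fold higher, at 11.55 ± 0.25 against 3.68 ± 0.09 (adjusted p = 5.36e-15). CLDN10 was at least 42.4-fold higher (adjusted p = 1.85e-11). ESRP2, a splicing factor of epithelial cells, was at least 41.7-fold higher (adjusted p = 6.65e-12). In GSC the levels of CDH1, EPCAM, CLDN1, CLDN10 and ESRP2 were 5.39 ± 0.19, 5.71 ± 0.75, 7.70 ± 0.19, 4.94 ± 0.25 and 5.19 ± 0.71. Markers of kidney epithelium moved the same way as these genes, 16 of 23 being higher in PGC with a median log2 difference of 2.23, and their part in the epithelial genes was not tested. The median of the kidney markers was 1.87 with values below background set to it and 1.34 with an offset of 16. On all 3 CEF arrays 15 of the 23 were at background. The keratin genes KRT14 and KRT7 and the desmosomal plakophilin PKP2 were lower in PGC, with log2 differences of -2.56, -2.43 and -2.52 (adjusted p = 7.86e-07, 2.19e-05 and 3.97e-04). CDH2, N-cadherin, was 2.65-fold higher in PGC by the probe set used, but its other probe set was called the other way, so its direction is uncertain.

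Cultured fibroblasts carried 7 of their 8 markers at higher levels than PGC. COL1A1, the main chain of collagen I, read 8.74, 8.79 and 10.29 in PGC and 12.74, 12.74 and 12.44 in CEF, a log2 difference of -3.37 ± 0.28 (SE, adjusted p = 8.71e-08). THY1, a surface marker of fibroblasts, read 2.95, 2.57 and 2.87 in PGC and 9.42, 8.85 and 8.91 in CEF, at least 43.7-fold lower in PGC (adjusted p = 1.82e-12). PGC were thus below background for THY1, while for collagen I every PGC array was well above it. POSTN, periostin, was at 7.72 ± 0.66 in PGC and 11.21 ± 0.12 in CEF (adjusted p = 5.98e-08). The mesenchymal factors PRRX1 and TWIST2 were lower in PGC by log2 differences of -2.26 and -2.44 (adjusted p = 4.80e-07 and 5.61e-05). COL1A2 was at 8.62 ± 0.83 in PGC and 11.90 ± 0.17 in CEF, and COL3A1 at 10.44 ± 0.42 and 11.46 ± 0.22 (adjusted p = 8.30e-08 and 1.88e-04). The eighth marker, the growth factor receptor PDGFRA, was below background on all 3 CEF arrays, at 2.69 ± 0.47, and at 3.22 ± 0.75 in PGC (adjusted p = 0.31). Its relative PDGFRB was at 6.27 ± 0.52 in PGC and 7.96 ± 0.04 in CEF (adjusted p = 4.48e-05).

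Of 26 measured collagens, 16 were lower in PGC (61.5%) and 4 higher, beside 22% lower among all genes. COL12A1 had the largest difference among those lower, at 6.25 ± 0.73 in PGC and 11.41 ± 0.15 in CEF (log2 difference -5.16, adjusted p = 2.74e-10). COL6A1 and COL5A1 were lower by log2 differences of -3.48 and -3.39 (adjusted p = 4.29e-07 and 6.20e-06). PGC replicate 3 held more of both than the other PGC arrays, and without it the difference of COL5A1 was -4.10. The 4 collagens higher in PGC included COL4A5, a basement membrane chain, at least 30-fold higher (adjusted p = 1.71e-10), and COL24A1, 7.72-fold higher (adjusted p = 1.19e-08). Their levels in GSC were 10.07 ± 0.04 and 7.96 ± 0.23, above the PGC means of 8.52 and 6.54.

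The enzymes and chaperones that make collagen were lower in PGC for 22 of 26 measured members. LOXL2, which crosslinks collagen, was lower by a log2 difference of -4.69 (adjusted p = 3.46e-08), PCOLCE2, an enhancer of procollagen cleavage, by -3.94 (adjusted p = 3.47e-09) and SERPINH1, the collagen chaperone HSP47, by -3.14 (adjusted p = 1.29e-08). P4HA3, a prolyl hydroxylase, was at least 9.08-fold lower (adjusted p = 2.10e-09). Matrix glycoproteins and proteoglycans were lower for 28 of 55 and higher for 8. LUM, the collagen-binding proteoglycan lumican, read 4.72, 5.46 and 6.23 in PGC and 11.29, 11.76 and 10.81 in CEF, a 56.4-fold difference (adjusted p = 5.01e-10). THBS2, thrombospondin 2, was at least 54.6-fold lower (adjusted p = 9.34e-11) and TGFBI 24.3-fold (adjusted p = 6.65e-12), and tenascin C was also called lower with PGC at background. FN1, fibronectin, was at 9.80 ± 0.29 in PGC and 12.74 ± 0.11 in CEF (adjusted p = 1.06e-08). THBS1 read 3.71, 3.70 and 3.37 in PGC and 5.67, 7.90 and 8.19 in CEF (adjusted p = 4.94e-06). CEF replicate 1 was the lowest of its group for this gene, and without it the log2 difference was -4.45 in place of -3.66.

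Laminins, which form basement membranes, ran the other way from the rest of the matrix. Of 7 measured, 4 were higher in PGC (57.1%) and 1 lower (14.3%), beside 27.7% and 22% of all genes. LAMA1 was 6.91-fold higher (adjusted p = 4.42e-07) and LAMB1 4.98-fold higher (adjusted p = 4.11e-09), with GSC levels of 8.03 ± 0.54 and 10.74 ± 0.11 against PGC means of 6.95 and 10.05. Matrix proteases and their inhibitors were lower in PGC for 17 of 32 and higher for 2. CTSK, the collagen-degrading cathepsin K, was 27.1-fold lower (adjusted p = 2.20e-09), MMP2, gelatinase A, 15.7-fold (adjusted p = 8.24e-09), and SERPINB2, an inhibitor of urokinase, at least 18.3-fold (adjusted p = 2.42e-11). FAP, the surface protease of activated fibroblasts, was at least 26.4-fold lower (adjusted p = 9.46e-11).

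Of the 36 lists the contractile cytoskeleton had the largest share called in 1 direction, with 48 of 54 measured genes lower in PGC (88.9%), 2 higher and a median log2 difference of -2.18. TAGLN, the actin-binding transgelin of smooth muscle and fibroblasts, read 4.31, 4.52 and 5.22 in PGC and 12.38, 12.51 and 12.43 in CEF, a 216-fold difference (adjusted p = 2.51e-13). ACTA2, smooth muscle actin, read 1.86, 1.69 and 2.43 in PGC and 6.25, 6.14 and 5.76 in CEF, at least 5.44-fold lower in PGC (adjusted p = 1.19e-10). Neither gene overlapped between the groups. ACTG2, enteric actin, was 85-fold lower (adjusted p = 1.06e-11), the LIM protein CSRP2 49.9-fold (adjusted p = 5.93e-14), PDLIM5, a PDZ and LIM protein of actin bundles, 48-fold (adjusted p = 1.59e-11) and caldesmon, CALD1, 45.7-fold (adjusted p = 1.13e-08). MYL9, a regulatory light chain of myosin, was at 8.10 ± 0.50 in PGC and 10.50 ± 0.12 in CEF (adjusted p = 7.02e-08). The near-identical actins may share probe signal, which was not tested. ACTB itself, often used as a reference gene, was 1.77-fold lower in PGC, at 11.59 ± 0.08 against 12.41 ± 0.05 (adjusted p = 1.74e-08), and GAPDH 1.34-fold lower (adjusted p = 0.00256).

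Targets and regulators of SRF and YAP, factors that read actin tension, were lower for 18 of 23 measured members and higher for 2. ANKRD1, a YAP target, was below background on all 3 PGC arrays and at 8.03 ± 0.37 in CEF, at least 21.4-fold lower in PGC (adjusted p = 6.72e-11). CCN2, connective tissue growth factor, read 8.70, 8.64 and 9.81 in PGC and 12.22, 12.35 and 12.11 in CEF (adjusted p = 4.14e-08). CYR61 (CCN1) was at 8.39 ± 0.72 in PGC and 10.86 ± 0.08 in CEF (adjusted p = 1.26e-06). Both CCN genes were well above background in PGC, so their differences were of degree. CAV1, the coat protein of caveolae, was below background in PGC and at 6.78 ± 0.25 in CEF, at least 9-fold lower (adjusted p = 1.66e-11).

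Mesenchymal surface and filament proteins were lower for 23 of 30 measured members, with a median log2 difference of -2.70. S100A6, a calcium-binding protein, was 115-fold lower, at 5.08 ± 0.83 against 11.93 ± 0.15 (adjusted p = 3.21e-10), ANXA1, annexin A1, 44.5-fold (adjusted p = 1.07e-10) and CD44, the hyaluronan receptor, 30.1-fold (adjusted p = 1.69e-10). VIM, the intermediate filament vimentin, differed by less, at 10.84 ± 0.40 in PGC and 12.26 ± 0.10 in CEF (adjusted p = 1.98e-06).

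Of 45 measured mesenchymal transcription factors, 26 were lower in PGC (57.8%) and 9 higher. MKX, the Mohawk factor of tendon, read 1.33, 1.87 and 2.01 in PGC and 8.85, 9.11 and 8.43 in CEF, at least 36.4-fold lower (adjusted p = 6.82e-13). TWIST1, a bHLH factor of mesenchyme, read 2.72, 2.58 and 3.19 in PGC and 8.67, 8.48 and 8.99 in CEF, at least 34.5-fold lower (adjusted p = 3.78e-11). Both were below background in every PGC array. PRRX2, a homeobox factor of limb and face mesenchyme, was at least 22.7-fold lower (adjusted p = 1.12e-13), and DLX5, a homeobox factor of bone, 17.7-fold (adjusted p = 1.39e-09). SNAI2, the Slug factor of epithelial to mesenchymal transition, read 4.23, 5.56 and 6.67 in PGC and 6.97 ± 0.50 in CEF (adjusted p = 0.0119). The groups overlapped through PGC replicate 3, and the log2 difference of -1.48 ranged from -2.07 without PGC replicate 3 to -0.85 without PGC replicate 1, where the call was lost. It was also lost without CEF replicate 3 and when the 2 groups were fitted alone. Among the 9 higher in PGC, FOXP2 was at least 2.45-fold higher (adjusted p = 1.57e-05), and its level in GSC was 6.24 ± 0.08 against 4.90 ± 0.20 in PGC.

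HOX genes mark position along the body and limb. With their cofactors they were lower in PGC for 13 of 32 measured members (40.6%) and higher for 2 (6.2%). Among all genes 22% were lower and 27.7% higher. HOXD11, a posterior and limb gene, was at least 3.48-fold lower, at 2.71 ± 0.47 in PGC and 5.41 ± 0.73 in CEF (adjusted p = 2.73e-06). MEIS2, PBX3 and MEIS1, TALE cofactors of HOX proteins, were lower by log2 differences of -1.88, -1.30 and -1.77 (adjusted p = 2.58e-04, 3.06e-04 and 0.00117). The 2 higher members were HOXD4, at 4.86, 5.27 and 4.80 in PGC and at most 3.31 in CEF (adjusted p = 2.29e-07), and HOXD8, at 5.63 ± 0.37 in PGC and 4.29 ± 0.45 in CEF (adjusted p = 1.99e-04). GSC were below background for both, at 2.28 ± 0.11 and 2.76 ± 0.07. Without PGC replicate 3 the list had 20 lower members, more than 1.5 times the 13.

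**Figure D3:**
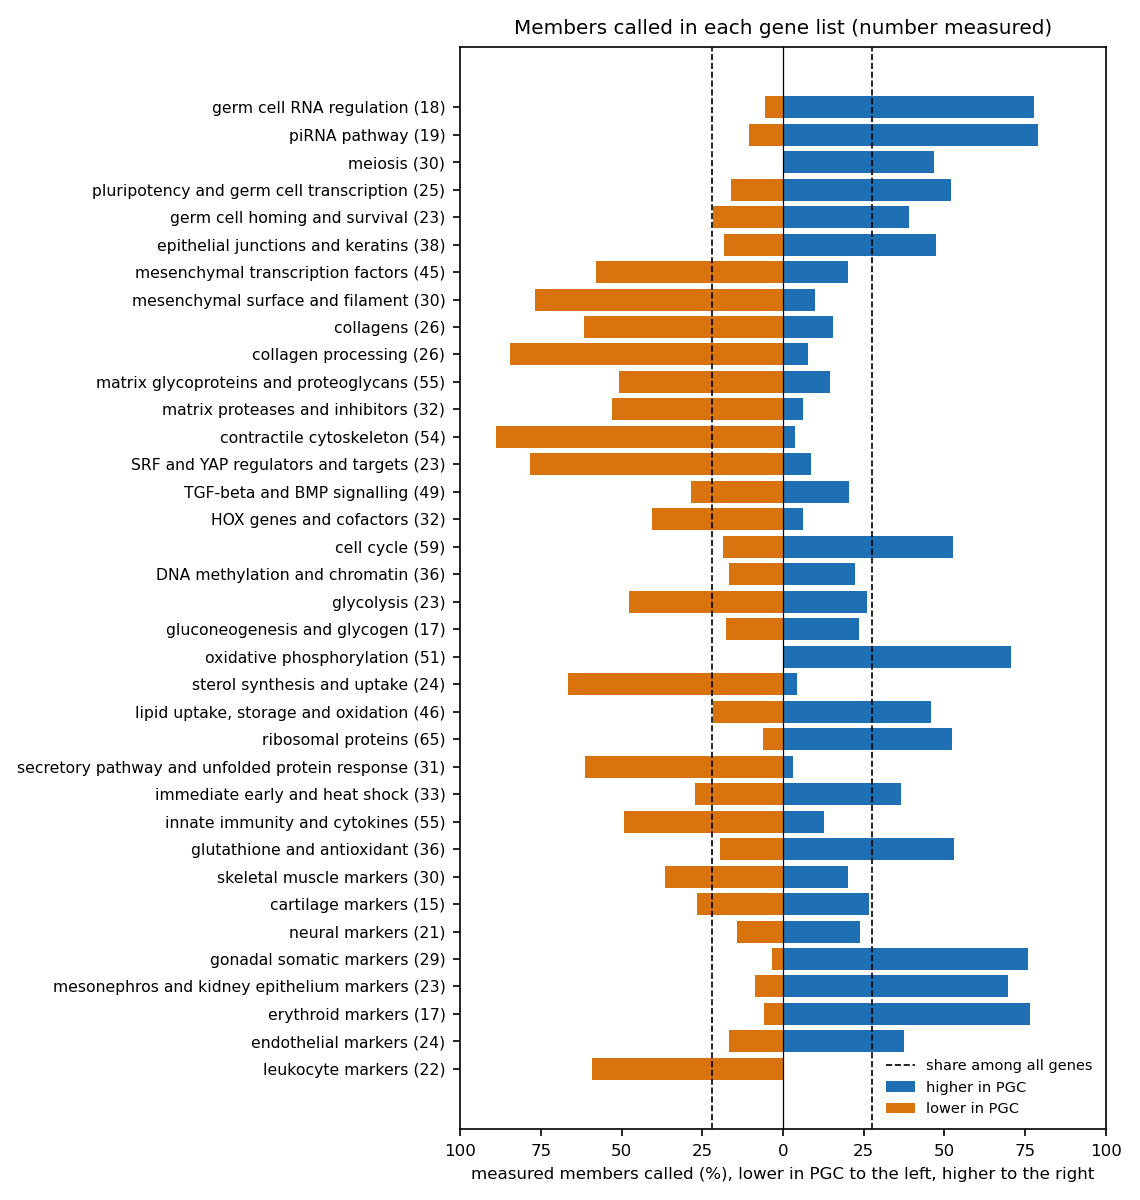
Percentage of the measured members of each of 36 gene lists called higher in PGC (blue, to the right) or lower (orange, to the left), with the number measured in parentheses; dashed lines mark the shares among all 13008 genes, 27.7% higher and 22% lower. Contractile cytoskeleton, at 88.9% lower, and the piRNA pathway, at 78.9% higher, lie at the ends, and DNA methylation and chromatin lies near both lines.

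INHBA, the beta A chain of activin, read 2.45, 2.63 and 2.65 in PGC and 10.60, 10.64 and 10.91 in CEF, at least 138-fold lower in PGC (adjusted p = 3.75e-14). TGFB3 was 6.75-fold lower (adjusted p = 1.79e-07), and of the receptors TGFBR1 was 5.18-fold lower (adjusted p = 1.13e-07). GDF3 was at least 4.32-fold higher in PGC (adjusted p = 1.50e-07), BMP7 at least 3.01-fold (adjusted p = 3.60e-06) and the BMP receptor BMPR1B at least 2.36-fold (adjusted p = 4.62e-06). Over the 49 measured genes of TGF-beta and BMP signalling, 14 were lower (28.6%, beside 22% of all genes) and 10 higher (20.4%, beside 27.7%), with a median log2 difference of -0.08, beside -0.005 over all genes. LRRC32, which holds latent TGF-beta at the cell surface, was 56.4-fold lower in PGC (adjusted p = 1.95e-11).

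Cytokine genes were on the fibroblast side. Of 55 measured innate immunity and cytokine genes 27 were lower in PGC (49.1%) and 7 higher. The chemokine CCL4 was at 2.58 ± 0.13 in PGC and 9.36 ± 0.18 in CEF, at least 53.8-fold lower in PGC (adjusted p = 3.26e-13). IL6 was at least 16.9-fold lower (adjusted p = 1.72e-10), LIF 9.67-fold (adjusted p = 3.25e-09) and PTGS2, the inducible cyclooxygenase, 8.55-fold (adjusted p = 1.36e-08). TNFSF10, the death ligand TRAIL, was 6.52-fold higher in PGC (adjusted p = 1.16e-07). Leukocyte markers moved with this group, 13 of 22 being lower in PGC and 0 higher by limma, and the log2 of their summed unlogged values was 8.34 to 8.82 in PGC and 9.61 to 10.73 in CEF. PTPRC, the CD45 antigen of blood leukocytes, read 3.15, 3.15 and 3.03 in PGC and 7.51, 7.32 and 8.04 in CEF, at least 16.2-fold lower in PGC (adjusted p = 3.61e-10). C1QB, a complement chain made by macrophages, read 2.80, 2.89 and 3.17 in PGC and 6.26, 5.33 and 7.14 in CEF, at least 6.22-fold lower (adjusted p = 3.94e-07). CTSS and LAPTM5, lysosomal proteins of immune cells, were 10.5-fold and 4.05-fold lower (adjusted p = 1.42e-07 and 1.69e-04). All 4 were above background on every CEF array and highest in CEF replicate 3, and the part of such cells in the cytokine levels was not tested.

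Proliferation genes split by function. Of 21 measured DNA replication genes 18 were higher in PGC and 0 lower by limma, with a median log2 difference of 1.13. On the log2 scale their summed level was 12.72 to 12.88 in PGC, 11.45 to 11.62 in CEF and 12.39 to 12.67 in GSC. Blastoderm cells were at 13.3 to 13.41. TYMS, thymidylate synthase, read 9.91, 9.78 and 9.32 in PGC and 7.01, 6.45 and 6.72 in CEF, 7.67-fold higher (adjusted p = 2.10e-09). CDT1, which licenses replication origins, was 3.96-fold higher (adjusted p = 7.06e-07), ORC2 of the origin recognition complex 3.69-fold (adjusted p = 2.55e-05) and POLA1, the catalytic subunit of polymerase alpha, 3.57-fold (adjusted p = 6.21e-06). PCNA, the sliding clamp, named after its value was seen, was 2.15-fold higher (adjusted p = 8.29e-07). Mitosis genes were higher for 10 of 19 (52.6%) and lower for 3 (15.8%), beside 27.7% and 22% of all genes. Among 19 cyclins, kinases and inhibitors the balance was reversed, with 3 higher (15.8%) and 8 lower (42.1%).

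The largest differences of the cell cycle list were in cell cycle inhibitors of the fibroblasts. CDKN2A, the locus of the INK4a and ARF inhibitors in mammals, read 1.82, 2.08 and 2.05 in PGC and 8.76, 8.20 and 8.96 in CEF, at least 32.7-fold lower in PGC (adjusted p = 1.00e-12). CDKN2B, which inhibits CDK4 and CDK6, read 3.04, 3.12 and 2.17 in PGC and 8.77, 8.39 and 9.70 in CEF, at least 40.7-fold lower (adjusted p = 2.28e-10). Both were below background in all 3 PGC arrays, and the GSC means were too, at 2.19 ± 0.26 and 2.51 ± 0.24. CDKN1A, the p21 target of p53, was 22.9-fold lower in PGC, at 5.01 ± 0.21 against 9.53 ± 0.20 (adjusted p = 3.47e-11), and MDM2, another p53 target, 10.3-fold lower (adjusted p = 1.92e-06).

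Transcript levels of energy metabolism genes also differed between the cell types. Oxidative phosphorylation genes were higher in PGC for 36 of 51 measured members (70.6%), with 0 lower by limma and a median log2 difference of 0.58. On the log2 scale their summed level was 15.72 to 15.84 in PGC, 15.27 to 15.29 in CEF and 15.46 to 15.66 in GSC. Blastoderm cells were at 15.04 to 15.18. The complex I subunits NDUFS4, NDUFA5, NDUFB10 and NDUFA1 were 4.07-fold, 3.33-fold, 2.25-fold and 2.04-fold higher (adjusted p = 2.23e-05, 2.80e-06, 5.04e-07 and 7.04e-06). Only 5 members passed 2-fold, so most of these differences were small. Over the alternative settings the count of members higher ranged from 25 to 37. With all probe sets of a gene averaged, the median log2 difference of the list was 0.34. Glycolysis genes leaned the other way, with 11 of 23 lower (47.8%) and 6 higher (26.1%), beside 22% and 27.7% of all genes. SLC2A1, the glucose transporter GLUT1, read 7.35, 6.89 and 7.01 in PGC and 9.85, 9.81 and 9.54 in CEF, 6.26-fold lower in PGC (adjusted p = 4.29e-08), and ENO2, an enolase, was 4.68-fold lower (adjusted p = 1.21e-06). PDK1 and PDK4, counted in the glycolysis list, are kinases that switch off pyruvate dehydrogenase. They were higher in PGC, 4.16-fold (adjusted p = 1.81e-08) and at least 3.9-fold (adjusted p = 1.89e-07). Ribosomal protein genes were higher for 34 of 65, with a median log2 difference of 0.18, but 18 with each array centred on its median and 14 without the intensity trend. With 1 array left out the count ranged from 20 to 34, and it fell by over 1.5 times without CEF replicate 2, PGC replicate 1 or PGC replicate 2.

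Sterol synthesis genes were lower in PGC as a group. Of 24 measured genes 16 were lower (66.7%) and 1 higher, the exporter ABCA1, with a median log2 difference of -1.45. The call of ABCA1 was lost with an offset of 64. FDPS, farnesyl diphosphate synthase, read 5.63, 5.41 and 5.77 in PGC and 9.15, 9.04 and 8.94 in CEF, 10.8-fold lower in PGC (adjusted p = 3.15e-09). LSS, lanosterol synthase, was 5.62-fold lower (adjusted p = 4.01e-07). INSIG1, the sterol-sensing brake of the pathway, was 6.02-fold lower (adjusted p = 4.92e-08), and STARD4, a cholesterol carrier, 5.7-fold (adjusted p = 1.44e-07). HMGCS1, an early enzyme of the pathway named after its value was seen, was 5.18-fold lower (adjusted p = 6.82e-08). For FDPS the spread within each group was a small part of the gap between them. Genes of the secretory pathway and the unfolded protein response were lower for 19 of 31 and higher for 1. Among them the coat protein SEC23A was 6.34-fold lower (adjusted p = 2.11e-07), the stress kinase EIF2AK3 5-fold (adjusted p = 1.62e-07) and the retrieval receptor KDELR3 4.06-fold (adjusted p = 2.64e-06).

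**Figure D4:**
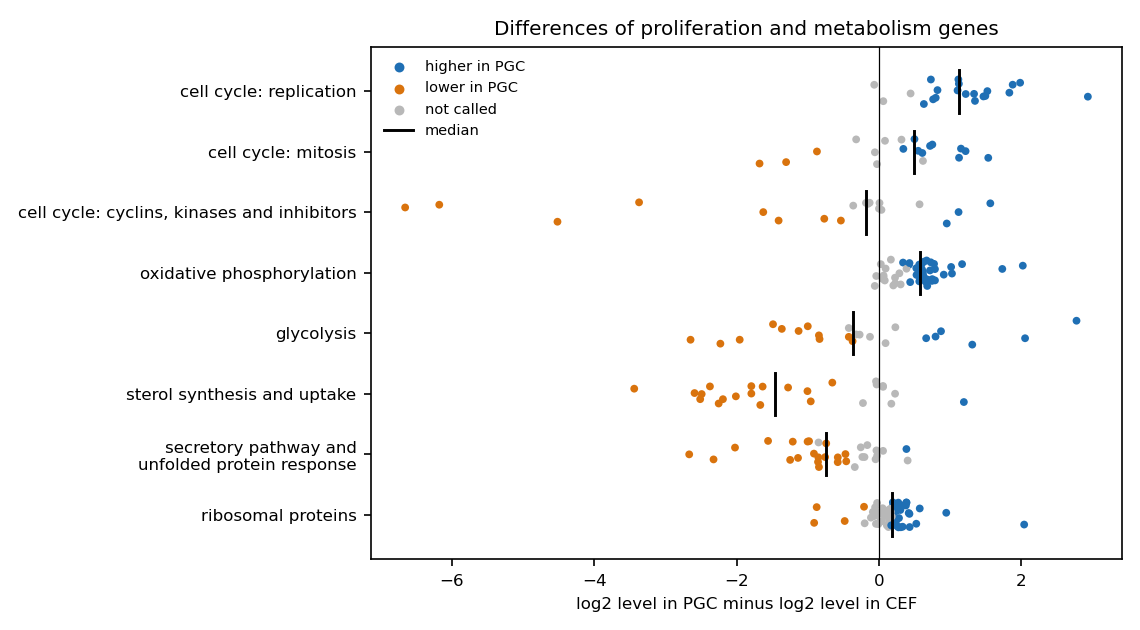
Log2 level in PGC minus log2 level in CEF for each measured gene of 8 groups, with genes called higher in PGC in blue, lower in orange and not called in grey; the black bar is the median of the group. Replication genes lie to the right with a median of 1.13, sterol genes to the left with a median of -1.45, and the 4 genes farthest left among cyclins, kinases and inhibitors are CDKN2A, CDKN2B, CDKN1A and MDM2.

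Of 46 measured genes of lipid uptake, storage and oxidation 21 were higher in PGC (45.7%, beside 27.7% of all genes) and 10 lower (21.7%, beside 22%). APOA1, the main apolipoprotein of high-density lipoprotein, was 104-fold higher, at 10.86 ± 0.46 against 4.17 ± 0.20 (adjusted p = 2.56e-12). Among the members called lower, FADS2, a fatty acid desaturase, and LPL, lipoprotein lipase, had log2 differences of -2.26 and -2.23 (adjusted p = 3.75e-06 and 7.66e-05). SCD, which makes monounsaturated fatty acids, was at least 2.66-fold lower (adjusted p = 5.35e-06). The fatty acid receptor CD36 had a log2 difference of -3.03 (adjusted p = 1.37e-05), or -2.40 without CEF replicate 3. Of 36 glutathione and antioxidant genes 19 were higher (52.8%) and 7 lower (19.4%). GSTA4, a glutathione transferase, read 8.33, 9.01 and 8.51 in PGC and 2.58, 2.60 and 2.35 in CEF, at least 32.2-fold higher (adjusted p = 4.07e-12). HMOX1, heme oxygenase 1, was 16.3-fold lower in PGC (adjusted p = 1.11e-08), and GPX7, a peroxidase of the endoplasmic reticulum, 12.6-fold lower (adjusted p = 1.51e-08). FBP1 and PCK1, enzymes of gluconeogenesis, were 80.1-fold and at least 7.16-fold higher (adjusted p = 6.29e-11 and 1.58e-09). UGT1A1, SULT1C3 and PNAT10, which conjugate glucuronic acid, sulfate and acetyl groups, were at least 52.4-fold, 102-fold and 99.5-fold higher (adjusted p = 1.08e-10, 5.01e-10 and 1.76e-10).

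Markers of kidney epithelium moved with these enzymes. Of 23 measured markers of mesonephros and kidney epithelium, the embryonic kidney that lies beside the gonad, 16 were higher in PGC (69.6%) and 2 lower. Their summed level lay between 11.38 and 12.25 in PGC and between 8.91 and 9.64 in CEF on the log2 scale. GATM, of creatine synthesis, read 8.74, 9.89 and 9.14 in PGC and 2.67, 2.77 and 2.79 in CEF, at least 50.1-fold higher (adjusted p = 1.43e-11). DPYS was 64.1-fold higher (adjusted p = 7.45e-10), and the amino acid transporters SLC6A19 and SLC3A1 at least 23.3-fold and at least 20.9-fold (adjusted p = 8.32e-09 and 1.79e-09). The levels of these 4 genes in GSC were 4.74 ± 0.33, 4.82 ± 0.53, 4.15 ± 0.72 and 3.99 ± 0.59, well below those of PGC. PGC replicate 2 was the highest PGC array for all 4, and also for FBP1, PCK1, GSTA4, SULT1C3 and PNAT10. UGT1A1 was instead highest in PGC replicate 3. Its bound was 46.9-fold with that array left out and 48.6-fold with PGC replicate 2 left out. By median level, the whole marker list was also highest in PGC replicate 3, at 5.54, 5.46 and 6.40 in PGC replicates 1 to 3. By summed level the list was highest in PGC replicate 2, at 11.38, 12.25 and 11.81. The part of kidney cells in the levels of these enzymes was not tested.

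Gonadal somatic markers were higher in PGC for 22 of 29 measured members (75.9%) and lower for 1, GATA6. Their median log2 difference was 1.99, or 1.63 without PGC replicate 3. Their summed level was 11.97, 12.65 and 13.39 in the PGC arrays, 9.71 to 9.91 in CEF and 13.58 to 13.88 in GSC. AMH, the hormone of Sertoli cells that regresses the Müllerian ducts, read 10.77, 11.69 and 12.17 in PGC and 3.29, 3.43 and 3.15 in CEF, at least 245-fold higher (adjusted p = 2.56e-12), with 12.20 ± 0.18 in GSC. CYP19A1, aromatase, was at least 23.5-fold higher (adjusted p = 2.65e-09), and ALDH1A2, which makes retinoic acid, 30.1-fold (adjusted p = 7.01e-10). CYP17A1, a steroid hydroxylase, read 7.73, 8.58 and 10.41 in PGC, 40.4-fold above CEF (adjusted p = 1.14e-07), and its log2 difference of 5.34 was 4.59 without PGC replicate 3 and 5.93 without PGC replicate 1. Every one of these genes was highest in PGC replicate 3, and their GSC levels were above the PGC means. LHX9 and NR5A1, transcription factors that form the gonad, were at least 5.38-fold and 7.28-fold higher (adjusted p = 2.44e-06 and 2.43e-07). Without PGC replicate 3 these bounds were 3.92-fold and 5.18-fold. GATA4 read 3.12, 3.78 and 5.97 in PGC and was below background in CEF. That gene was at least 1.6-fold higher (adjusted p = 0.0112), or at least 2.41-fold without PGC replicate 1. Without PGC replicate 3 the mean of GATA4 in PGC was itself below background and gave no fold, and its call was lost with an offset of 16 or 64. WT1 was not analysed here. The part of gonadal somatic cells in the PGC levels was not tested.

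Red blood cell genes were also higher, 13 of 17 erythroid markers (76.5%) against 1 lower. HBAD, an alpha-type globin, read 12.36, 12.56 and 12.70 in PGC and at most 4.55 in CEF, 302-fold higher (adjusted p = 6.55e-14), with 12.80 ± 0.01 in GSC. The globins HBBR, HBZ, HBA1 and HBE were 296-fold, 243-fold, 210-fold and 186-fold higher (adjusted p = 9.92e-14, 3.20e-11, 1.16e-14 and 1.16e-14). All CEF arrays were at most 5.03 for these 5 globins, whose probes may share signal. The summed level of the list was 14.40 to 14.71 in PGC and 9.41 to 9.74 in CEF. Endothelial markers were higher for 9 of 24 (37.5%) and lower for 4 (16.7%), beside 27.7% and 22% of all genes. Of these markers SOX7 was at least 9.67-fold higher (adjusted p = 6.06e-10) and ERG 12.1-fold lower (adjusted p = 1.41e-06). The summed level of the endothelial markers, 9.28 to 10.56 in PGC and 9.38 to 9.90 in CEF, overlapped between the groups. With 1 array left out the count of endothelial markers called lower ranged from 2 to 7, and it moved by over 1.5 times without PGC replicate 1, PGC replicate 3 or CEF replicate 3.

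**Figure D5:**
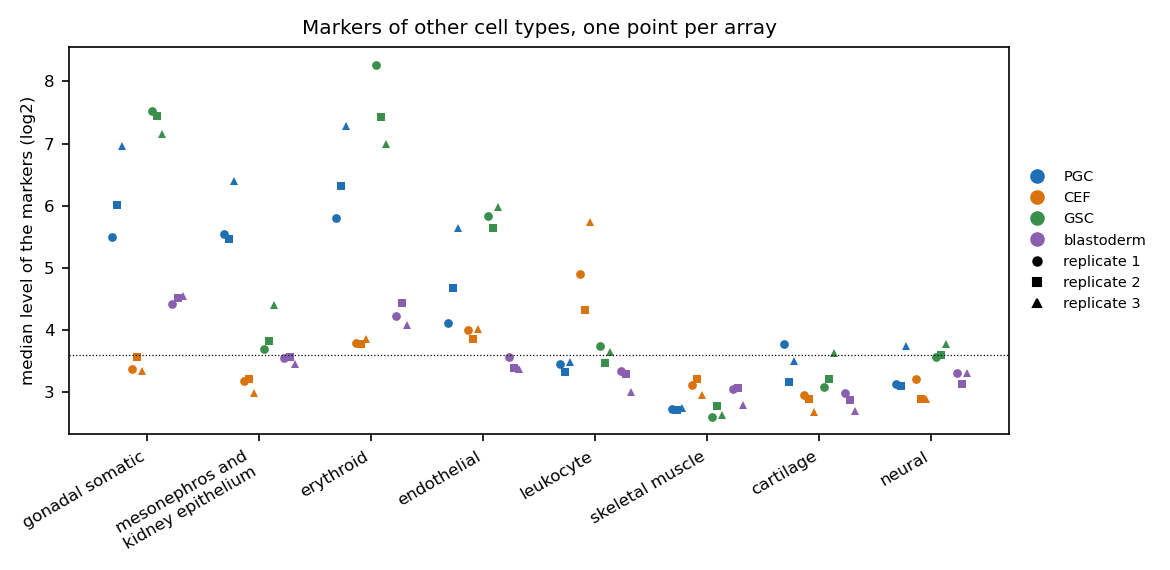
Median log2 level of the measured markers of 8 other cell types, 1 point for each array, in PGC (blue), CEF (orange), GSC (green) and blastoderm (purple); marker shapes give the replicate and the dotted line the background of 3.608. Gonadal somatic, kidney and erythroid medians of PGC lie above those of CEF on every array, PGC replicate 3 is the highest PGC array for each of these, and leukocyte medians are highest in CEF.

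In CEF the markers of muscle were few. Of 30 measured skeletal muscle markers, 11 were lower in PGC (36.7%) and 6 higher (20%), beside 22% and 27.7% of all genes. On all 3 CEF arrays 19 of the 30 were at background. With genes near background filtered out, 5 were lower and 3 higher. MYH15, a myosin heavy chain, read 8.93, 8.14 and 7.63 in CEF and was below background in PGC, at least 24.7-fold lower there (adjusted p = 2.55e-11), and MYH1E was at least 3.59-fold lower (adjusted p = 4.32e-12). Cartilage markers were called 4 higher (26.7%) and 4 lower (26.7%) of 15, and neural markers 5 higher (23.8%) and 3 lower (14.3%) of 21, beside 27.7% and 22% of all genes. With 1 array left out the lower counts ranged from 2 to 4 for cartilage and from 1 to 5 for neural markers. The RNA-binding gene ELAVL4, listed with the neural markers, was 40.9-fold higher in PGC, at 9.03 ± 0.38 against 3.68 ± 0.15 (adjusted p = 3.47e-11), and the neurofilament NEFM at least 14.3-fold (adjusted p = 7.75e-11).

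Several of the largest differences lay outside the lists. AvBD10, an avian beta-defensin with antimicrobial activity, read 11.75, 11.99 and 11.86 in PGC and 2.78, 2.84 and 2.67 in CEF, at least 306-fold higher (adjusted p = 1.92e-13). Its bound was the largest among the ranked genes higher in PGC, and its level in GSC was 9.66 ± 0.54. Over all probe sets called higher, including those without a symbol, the largest log2 difference was 10.60, against 9.10 for AvBD10. TTC39A was at least 98.5-fold higher (adjusted p = 1.73e-12), the tetraspanin TSPAN13 82.5-fold (adjusted p = 4.71e-12), the cytochrome P450 CYP2AC1 71.2-fold (adjusted p = 6.26e-10) and embigin, EMB, 55.2-fold (adjusted p = 2.87e-12). RGN, regucalcin, was 215-fold higher by the probe set used, but its other probe set was called the other way. On the fibroblast side LGALS1A, a galectin, read 2.83, 3.48 and 3.02 in PGC and 11.87, 11.78 and 11.82 in CEF, at least 297-fold lower in PGC (adjusted p = 3.47e-14). CCK, the peptide cholecystokinin, read 4.78, 4.26 and 4.47 in PGC and 10.38, 10.22 and 10.78 in CEF, 62.1-fold lower in PGC (adjusted p = 9.99e-12). The groups did not overlap for either gene, and blastoderm cells at day 0 read 7.08 and 6.44 for them. The part of culture in these differences was not tested. KCNMB1, the smooth muscle subunit of the BK potassium channel, was 54.9-fold lower (adjusted p = 4.09e-10), the CCN family member WISP1 53.3-fold (adjusted p = 1.09e-10), the membrane protein EMP1 45.8-fold (adjusted p = 3.61e-10) and METTL7A at least 26.1-fold (adjusted p = 1.01e-10).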

How the data were processed

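RNA of 12 samples in 4 groups of 3 was hybridised to Affymetrix chicken arrays of 38535 probe sets, per the labels. The authors deposited 1 log2 value for each probe set and array, and MAS5 is named, without version or role, in the submitters' processing notes. No source used here gives the background correction or scaling. They were used as deposited. Control (96) and viral or reporter (746) probe sets were left out of the tests, and 10350 chicken probe sets with no symbol and 177 with several were tested but not named. Each gene took the probe set of highest mean, with _x_at sets used only where it had no other. Background, 3.608, was set where 99% of the values of those 746 fell below. limma 3.58.1 (R 4.3.3) fitted all 12 arrays with 4 group means, an intensity trend and 8 residual degrees of freedom, and p-values were adjusted by Benjamini-Hochberg over 37693 probe sets. A bound compares the brighter group with the higher of background and the dim probe on each array. In a simulation over 37693 probe sets, limma recovered 17 of 50 changes of 1.5-fold and 27 of 50 of 2-fold. It recovered 48 of 50 changes of 4-fold and 50 of 50 of 8-fold, and it also called 11 unchanged probe sets. Only the 50 probe sets at each fold were changed there, against 38.6% called in the real data. The adjusted cutoff was thus stricter in the simulation, and its rates do not give the recovery in this comparison. The number of arrays limits the precision. No 2 arrays held identical values.

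Named genes were, in each direction, the 12 largest differences with both groups above background and no overlap, the 12 largest bounds, up to 4 called members of each list and a set of genes always given. Genes whose symbol is only LOC and a number were not ranked. The comparison, its members and the 36 gene lists were chosen with earlier results of these data known. Alternatives were other offsets, filters, scalings and variance models, a replicate block, and each array left out in turn. Symbols come from the platform annotation, and 27159 of 27166 were found in RefSeq.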

Additional observations from a re-analysis of the deposited data

How the results depend on the processing

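The counts of genes and probe sets called in each direction stayed within 1.5 times under other offsets, a filter on low values, other scalings and variance models, a fit of the 2 groups alone and each array left out in turn. With 1 array left out, probe sets called higher ranged from 6364 (without CEF replicate 2) to 7690 (without PGC replicate 3) and lower from 5882 (without PGC replicate 1) to 7412 (without PGC replicate 3), and genes from 3114 to 3727 and from 2479 to 3020. Requiring a 2-fold difference gave 4221 and 3024 probe sets and 2062 and 1470 genes. Of 291 genes, those named here and others chosen by the same rule, none changed sign under any of these settings. The filter on low values kept 275 of them. Most were chosen as called genes with large differences on these same arrays, so a stable sign was largely fixed by the choice. At most 18 of the 291 lost their call, in the fit of the 2 groups alone, and at most 14 with a PGC or CEF array left out. Among all called genes, 264 had another probe set called the other way. The size of a fold depends on how low values are treated, since an offset of 16 moved 142 of the 291 by over 1.5 times and an offset of 64 moved 205, which follows from adding a constant to low values. The 3′ to 5′ difference was reversed in sign for actin alone, at 0.121 (PGC minus CEF, exact permutation p = 0.8), and the cause was not tested. Replicate numbers were not shown to pair the samples, as same-numbered PGC and CEF arrays deviated together with r of 0.114, -0.001 and -0.048. With the replicate number as a block 7485 probe sets were higher and 7144 lower, and no named gene lost its call. The number of arrays limits how well small differences can be seen. Signal near background limits several lists, with 16 of 30 meiosis genes, 16 of 30 skeletal muscle markers and 12 of 21 neural markers at background in both groups. Of the probe sets called, 50.7% were higher in PGC as deposited, 49.1% after quantile normalization and 43.9% with median centring.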

Other observations

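Stress and immediate early genes, not described above, divided by class. Of 14 measured immediate early genes 2 were higher in PGC (14.3%) and 7 lower (50%). Of 19 heat shock genes 10 were higher (52.6%) and 2 lower (10.5%), beside 27.7% and 22% of all genes. JUN, a subunit of the AP-1 factor, read 10.06, 9.60 and 10.83 in PGC and 8.59, 8.57 and 8.90 in CEF. It was 2.78-fold higher in PGC (adjusted p = 6.51e-05 by limma), with 11.32 ± 0.17 in GSC. Dissociation of tissue is known to induce JUN, and its part in these levels was not tested. CEBPB and MAFF, bZIP factors of stress responses, were lower in PGC, 9.25-fold and 6.37-fold (adjusted p = 1.17e-08 and 3.20e-08). HSPB1, a small heat shock protein that protects actin, read 6.24, 6.65 and 7.82 in PGC and 10.10, 10.35 and 10.11 in CEF, 9.74-fold lower in PGC (adjusted p = 1.17e-07). CRYAB, another small heat shock protein, went the other way and was 5.69-fold higher (adjusted p = 3.07e-08), and the chaperone HSP90AB1 was 2.17-fold higher (adjusted p = 2.85e-04). The groups did not overlap for any of these genes. Of all genes, 30.1% were without overlap and higher in PGC and 26.8% without overlap and lower.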
